A study of Mus musculus with 6 samples.

Results

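The genes described here build, transfer and trim asparagine-linked glycans (N-glycans) in the intestinal epithelium. They were chosen by name. The rule takes the Alg and Mgat families and the Man1 and Man2 genes whose symbol ends in a number. It adds oligosaccharyltransferase subunits, the dolichol phosphate mannose synthase subunits and a few named enzymes. Man1a, whose symbol ends in a letter, is not in the set. The rule uses no measured value, but the members were chosen with earlier results of these data known. In all, 48 of the 22274 gene rows of the expression table belong to the set, and 45 of them had enough counts to be tested among 14005 tested genes. Tusc3, which the choice also names, was not analysed here. The RNA came from isolated epithelium of mouse ileum, as 3 control and 3 Ogt knockout libraries. The knockout mice carried floxed Ogt alleles together with Olfm4-CreER, a tamoxifen-inducible recombinase driven from a gene of crypt stem cells, so recombination starts in the stem cell compartment and reaches other epithelial cells as they renew. Control libraries carry the driver gene's name in their title (Olfm4Ctrl) and LoxP as their genotype, and the labels do not say whether these mice carried the recombinase. If they did not, an effect of the recombinase cannot be told apart from an effect of losing Ogt. The labels describe offspring of the cross as given tamoxifen for 3 days in a row at 2 months of age, with tissue taken on day 10, and do not say separately whether controls had it. The labels do not say that each library came from a separate animal, so p-values describe only how much these libraries vary, which may be technical.

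An N-glycan is first assembled on the lipid dolichol at the membrane of the endoplasmic reticulum (ER): Dpagt1 starts it and the Alg enzymes extend it, on the cytosolic face and then in the lumen. The oligosaccharyltransferase then moves the finished glycan to an asparagine of a growing protein, glucosidases and mannosidases trim it, and Golgi enzymes rebuild it into branched forms. In the gut, N-glycans are carried by brush border hydrolases, transporters and secreted proteins of goblet and Paneth cells. Ogt itself does not take part in this pathway: it attaches single N-acetylglucosamine (GlcNAc) residues to nuclear and cytoplasmic proteins, but it uses UDP-GlcNAc, the nucleotide sugar that Dpagt1, Alg13 with Alg14 and the Mgat enzymes also use.

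Ogt stood at 140, 127 and 128 CPM in control libraries 1 to 3 and at 48.5, 43.0 and 36.0 CPM in knockout libraries 1 to 3, where CPM is counts scaled to library size with TMM factors. Ogt thus had a log2 fold change of -1.63 (SE 0.13, adjusted p = 0.00121, edgeR quasi-likelihood test with Benjamini-Hochberg adjustment over all tested genes, as for every adjusted p below). The labels state that the knockout ileum had lost Ogt throughout by then; the floxed part of the gene is not given, and the source of the remaining reads was not tested. Library totals ran from 14389429 to 18076479 estimated counts, and 3 counts corresponded to 0.159 to 0.207 CPM. TMM factors were 0.941 to 0.979 in control and 1.01 to 1.09 in knockout libraries, so the scaling itself differed between the groups. All 12 enterocyte markers were detected, and their summed level was 28961 to 40653 CPM in control and 24458 to 29044 CPM in knockout libraries. The summed levels of tuft cell and fibroblast markers did not overlap between the groups, while those of enterocyte and goblet cell markers did. The 7 tuft cell markers summed to 86.4 to 89.7 CPM in control and 13.6 to 18 CPM in knockout libraries, and the 8 goblet cell markers to 6841 to 15954 and 4789 to 8338 CPM. The 5 fibroblast markers, of which 2 were higher and 0 lower, summed to 256 to 360 CPM in control and 365 to 426 CPM in knockout libraries. The 5 smooth muscle markers, of which 0 were called, had log2 fold changes from -0.97 to -0.61. They summed to 747 to 1859 CPM in control and 692 to 1015 CPM in knockout libraries. No marker was at 0 in all 6 libraries. Control 1 had the highest goblet level, and control 2 had the lowest Paneth level, at 237 CPM against 1235 to 3230 CPM in the knockout libraries. In these bulk samples, fewer cells of a type and less RNA per cell cannot be told apart.

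Across the set, 4 genes were higher and 1 was lower in knockout libraries, and the other 40 tested members did not pass the test. Dpm1, Dolk, Man1b1 and Ddost were the genes that rose, and Mgat4a was the gene that fell. The row of Dpm1 shares reads with another row, and with both rows summed 3 members were higher and 1 lower. That sum can also hold reads of the neighbouring gene Adnp. The 4 higher members are 8.89% of those tested, against 9.33% of all tested genes, and the 1 lower member is 2.22% against 9.37%. In either direction 11.1% of the tested members were called, below the 18.7% of all genes. Scaling by library size alone moved the split of all calls from 1307 higher and 1312 lower to 2045 higher and 859 lower, and the members to 6 higher and 1 lower. The median log2 fold change of the members was 0.05, beside -0.05 over all tested genes, with 24 members above 0 and 21 below. Values of the 2 groups did not overlap for 20 of the 45 members (44.4%), 9 with all knockout libraries higher and 11 with all lower, where the same held for 39.8% of all genes, 19.6% higher and 20.2% lower. The 40 members that were not called had log2 fold changes from -0.70 to 0.58. Leaving out 1 library gave from 2 to 9 higher and from 0 to 2 lower members. Without control 1 there were 9 and 2 (all genes: 1932 and 1372), without control 2, 4 and 0 (903 and 780), and without control 3, 2 and 0 (639 and 559). Without knockout 1 there were 3 and 2 (757 and 897), without knockout 2, 3 and 0 (601 and 533), and without knockout 3, 3 and 0 (549 and 460). Each of these runs tested 45 members and between 14172 and 14262 genes.

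**Figure D1:**
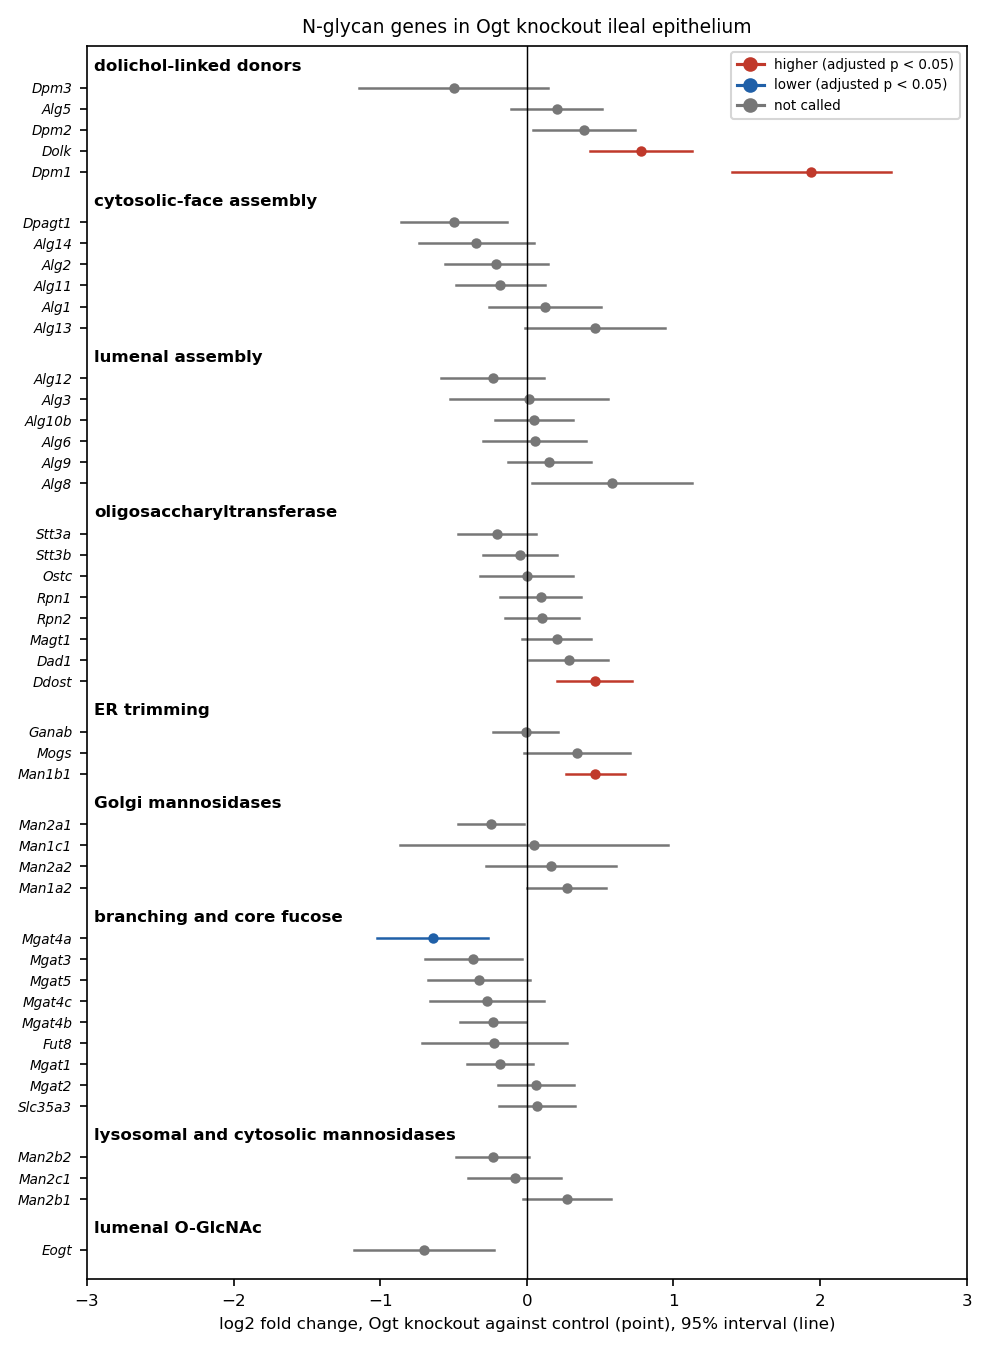
Log2 fold change of each tested member in knockout against control libraries, grouped by step of the pathway (horizontal axis, points; lines are 95% intervals of the quasi-likelihood fit; n = 3 libraries a group). Red points are the 4 higher genes, the blue point is Mgat4a, and grey points did not pass the test; most grey intervals cross 0.

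By level per transcript length, the set is well represented in ileal epithelium. Mean FPKM (fragments scaled to transcript length and library total, as deposited) over the 6 libraries was at least 1 for 44 of the 48 members, at least 10 for 29 and at least 50 for 9. Mgat4c was the most abundant member at 158 FPKM, followed by Ostc at 106, Rpn2 at 79.6, Rpn1 at 73.5, Ddost and Mgat4a both at 72.5 and Dad1 at 70.8 FPKM. The lowest library of Mgat4c, at 127 FPKM, was above the highest of Ostc, at 125 FPKM, whereas from Ostc to Dad1 each range over libraries overlapped the next, so that order is not resolved beyond the spread. Replicates lay close together: the median coefficient of variation of the tested members was 11.4% in control and 8.39% in knockout libraries, beside 15.3% and 12.5% over all tested genes. At the other end, Mgat4d and Mgat4e had 0 counts in all 6 libraries and Mgat5b had 0 to 3 counts, which left them untested.

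The dolichol-linked sugar donors come first in the pathway, and 2 of the 5 members with this role rose, Dolk and Dpm1, or 1 of 5, Dolk, with the Dpm1 row summed with the row it shares reads with. The median log2 fold change of the 5 was 0.39, or 0.30 with that sum. Dolk encodes dolichol kinase, which makes the dolichol phosphate that carries the sugars. Its level was 11.7, 9.09 and 9.59 CPM in control libraries 1 to 3 and 16.9, 16.6 and 18.5 CPM in the knockout ones. All 3 knockout libraries were above all 3 control libraries, by a log2 fold change of 0.78 (SE 0.15, adjusted p = 0.0128), or 1.71-fold. The call was lost without control 3 (adjusted p = 0.0534) and without knockout 3 (adjusted p = 0.0596), with the difference still at 0.77 and 0.73.

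Dpm1 encodes the catalytic subunit of dolichol phosphate mannose synthase, and its row had the largest difference of the set. Estimated counts of that row were 66.3, 71.5 and 52.8 in control and 173, 339 and 248.6 in knockout libraries, or 3.81 ± 0.619 and 14.7 ± 3.67 CPM (SD, n = 3). The difference was 1.94 in log2 (SE 0.24, adjusted p = 0.00288), and it passed the threshold in each of the 16 other analyses of the same row. The reads behind it are, however, shared with another row. Gm20716 is annotated on the same strand over exons of both Dpm1 and the neighbouring Adnp. In GENCODE M21, 895 of the 5288 exonic bases of Gm20716 (16.9%) lie in Dpm1 exons and the other 83.1% in Adnp exons. The same 895 bases are 11.95% of the 7489 exonic bases of Dpm1. The deposited table gives the Gm20716 row the symbol Dpm1 as well, and the counts of both rows are fractional, as estimated counts are where reads fit several genes. Gm20716 held 1572 to 1699 counts in control and 1708 to 2007 in knockout libraries, a log2 fold change of 0.17 (SE 0.09, adjusted p = 0.240). The Dpm1 row therefore made up 3.74 ± 0.528% of the sum of both rows in control and 11.7 ± 2.87% in knockout libraries (SD, n = 3). With both rows added together, an analysis chosen after the data had been seen, the log2 fold change was 0.30 and missed the threshold (adjusted p = 0.0617). Because most bases of Gm20716 lie in Adnp exons, that sum can also hold Adnp reads and is not a count of Dpm1 alone. How reads were divided between the rows was not tested, and the rise stated for Dpm1 holds for its own row only. Adnp stood at -0.87 (SE 0.46, adjusted p = 0.230).

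**Figure D2:**
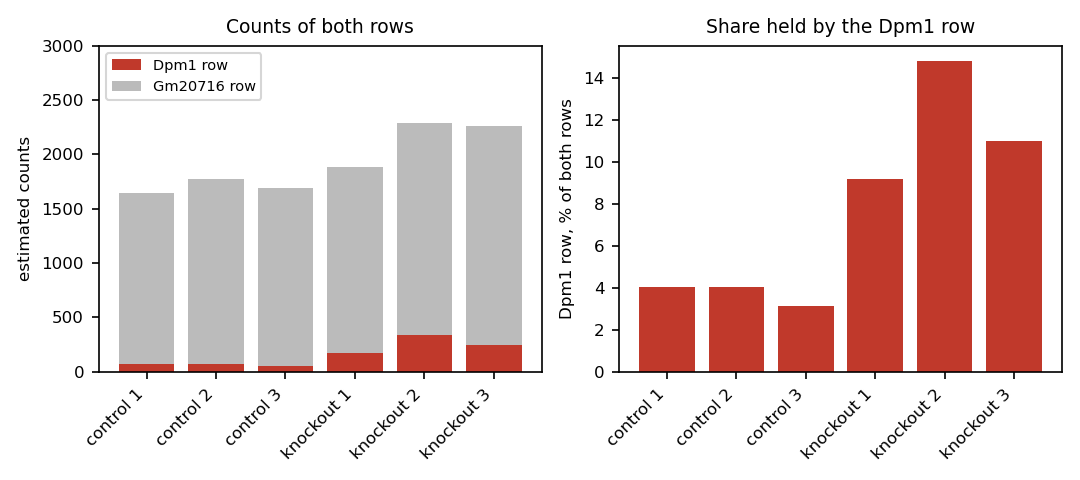
Left, estimated counts of the overlapping Gm20716 row (grey) stacked on those of the Dpm1 row (red) in each of the 6 libraries. Right, the Dpm1 row as a percentage of both rows. The share runs from 3.13% to 4.04% in control and from 9.21% to 14.8% in knockout libraries, while most of the counts stay in the grey part.

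The remaining donor genes did not pass the test. Dpm2, which holds the synthase in the membrane with Dpm3, stood at 0.39 (SE 0.15, adjusted p = 0.111). Its knockout libraries, 20.7 to 25.3 CPM, were all above its control libraries, 14.7 to 19.4 CPM. Dpm3 stood at -0.50 (SE 0.28, adjusted p = 0.247), with control values spread from 4.47 to 9.07 CPM. Alg5, which makes dolichol phosphate glucose and was the most abundant donor gene at 23.9 FPKM, stood at 0.20 (SE 0.13, adjusted p = 0.322). Subunits of the same synthase thus had estimates on both sides of 0, at low counts.

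On the cytosolic face, 0 of the 6 assembly genes passed the test, and 4 of the 6 estimates were below 0 under every scaling tried. Dpagt1, the enzyme that adds the first GlcNAc phosphate to dolichol and the target of tunicamycin, was closest. It was read at 29.8, 27.0 and 25.0 CPM in control and 23.3, 17.6 and 17.1 CPM in knockout libraries. The groups did not overlap, and the difference was -0.50 (SE 0.16, adjusted p = 0.0604). Without knockout 1 it passed (-0.65, adjusted p = 0.0330). Alg14, which anchors the catalytic Alg13 for the second GlcNAc, stood at -0.35 with non-overlapping groups (adjusted p = 0.193), and Alg2 and Alg11, mannosyltransferases, at -0.21 and -0.18. Alg13 stood at 0.46 (SE 0.21, adjusted p = 0.159) and Alg1 at 0.12. The deposited table also gives the symbol Alg13 to Glt28d2, with which Alg13 shares no exonic bases in GENCODE M21. The counts of Alg13 itself were whole in all 6 libraries. With both rows added the difference was 0.13 (adjusted p = 0.556). That sum is mostly Glt28d2, as Alg13 made up on average 15.3% of it in control and 19.4% in knockout libraries. Alg1 shares 17.6% of its exonic bases with Eef2kmt on the opposite strand, and the library kit does not mark strand, so reads there cannot be assigned.

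In the lumen of the ER, 0 of the 6 Alg genes passed the test. The mannosyltransferases Alg3, Alg9 and Alg12 stood at 0.02, 0.15 and -0.23, and the glucosyltransferases Alg6 and Alg10b both at 0.05. Alg8, which adds the second glucose, had the highest estimate among all members that were not called. Its libraries read 10.4, 6.06 and 7.65 CPM in control and 14.3, 10.0 and 11.8 CPM in knockout, with knockout 2 below control 1. The difference was 0.58 (SE 0.24, adjusted p = 0.126), and it passed without control 1 (0.85, adjusted p = 0.0287). Alg9, at 12.4 FPKM the most abundant of these, shares 12.9% of its exonic bases with 1110032A03Rik on the opposite strand.

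Of the 8 oligosaccharyltransferase subunits, 1 rose, Ddost, and 0 fell. Ddost encodes OST48, a non-catalytic subunit found in both forms of the complex. Its level was 130, 133 and 122 CPM in control libraries 1 to 3 and 176, 196 and 159 CPM in knockout libraries 1 to 3. Every knockout library was above every control library, and the log2 fold change was 0.46 (SE 0.11, adjusted p = 0.0251), or 1.38-fold. The call was lost without control 3 (adjusted p = 0.0655), knockout 1 (adjusted p = 0.0634) or knockout 2 (adjusted p = 0.0927). Without knockout 2 the difference was 0.39. Among secretory cells, which are rich in ER, the summed goblet level is given above, the 10 Paneth markers summed to 237 to 2489 CPM in control and 1235 to 3230 CPM in knockout libraries, and the 7 enteroendocrine markers to 62.6 to 89.9 and 108 to 126 CPM; their part in the Ddost value was not tested.

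The other 7 subunits had estimates from -0.20 to 0.29. Rpn1 and Rpn2, the ribophorins of both complexes, stood at 0.09 and 0.10, with 95% intervals of -0.18 to 0.37 and -0.15 to 0.35. Dad1, a small membrane subunit, stood at 0.29 (SE 0.12, adjusted p = 0.127), with knockout libraries at 64.6 to 72.7 CPM all above control libraries at 48.4 to 62.2 CPM, and it passed under library size alone. Magt1, the oxidoreductase subunit of the STT3B complex, also had non-overlapping groups, at 0.20 (adjusted p = 0.199). Ostc, of the STT3A complex, had 106 FPKM on average and a difference of 0.00 (SE 0.14, adjusted p = 0.996). The catalytic subunits Stt3a, which acts during translocation, and Stt3b, which can act later, stood at -0.20 (adjusted p = 0.249) and -0.05 (adjusted p = 0.789), and Stt3b and Ostc change sign under library size alone. In FPKM, Stt3a made up 28.0 to 33.6% of Stt3a plus Stt3b in control and 28.5 to 29.3% in knockout libraries.

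**Figure D3:**
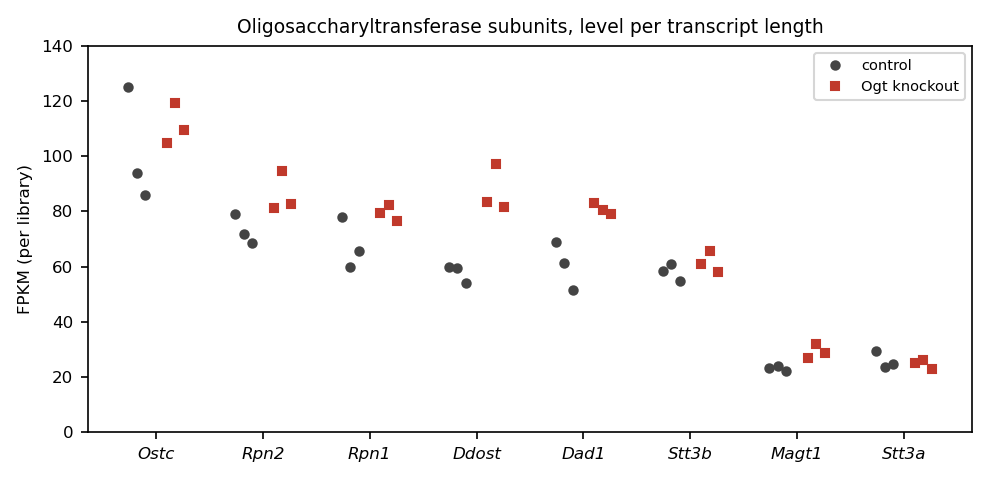
Level of each oligosaccharyltransferase subunit in FPKM (vertical axis), 1 point per library, black circles control and red squares knockout, ordered by mean level. Of the 8 subunits Ddost has the widest gap between the groups; FPKM values are as deposited, without the TMM scaling of the CPM values.

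Among the ER trimming enzymes, Man1b1 rose and the glucosidases did not pass the test. Man1b1 encodes ER mannosidase I, which removes a mannose and so takes part in marking misfolded glycoproteins for disposal. Relative to its mean, it had the tightest groups among the called members, at 79.0, 81.7 and 82.0 CPM in control and 111, 114 and 111 CPM in knockout libraries. It differed by 0.47 in log2 (SE 0.09, adjusted p = 0.0105), or 1.38-fold, and it passed in all 16 other analyses, with adjusted p up to 0.0460. In GENCODE M21, 4.34% of its exonic bases overlap AA543186 on the opposite strand. Mogs, glucosidase I, stood at 0.34 (SE 0.16, adjusted p = 0.164), and Ganab, the catalytic subunit of glucosidase II and the most abundant of the 3 at 47.5 FPKM, at -0.01 (adjusted p = 0.961), a sign that changes under library size alone.

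**Figure D4:**
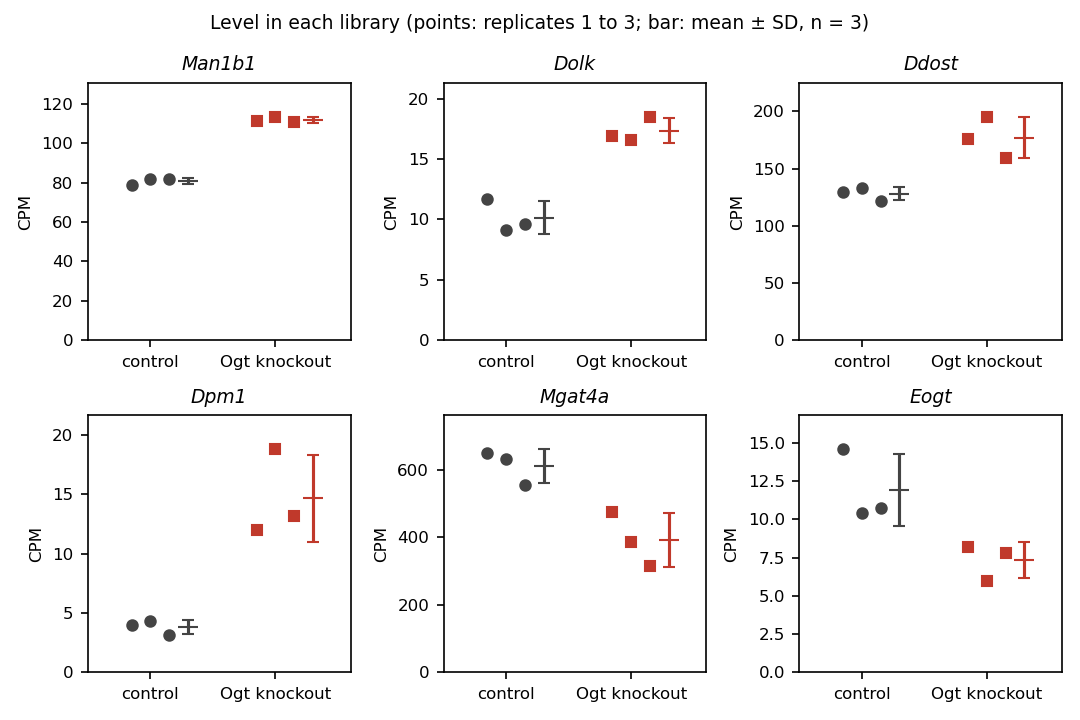
Level in CPM (vertical axis, from 0) of the 5 called members and of Eogt, which lay just outside the threshold, in control (black circles) and knockout libraries (red squares), 3 a group; bars are mean ± SD. The groups do not overlap in any of the 6 panels, and Man1b1 has the smallest spread relative to its mean.

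For the called members whose reads are not shared with a neighbour on the same strand, the stretch before the start site is shown, so that the letters before 3 genes that rose and 1 that fell can be compared directly. Sequences are from RefSeq on GRCm38.p6, 250 bases up to the start site, 5' to 3' on the gene's strand, in lower case, with matches on either strand to the 3 short motifs named after them in capitals, where overlapping matches run together. Ddost is at chr4:138304488-138304737 on the plus strand, Dolk at chr2:30286355-30286604 on the minus strand, Man1b1 at chr2:25332493-25332742 on the plus strand and Mgat4a at chr1:37541017-37541266 on the minus strand. RefSeq lists 2 start windows for Mgat4a, of which the upstream one is shown.
Ddost: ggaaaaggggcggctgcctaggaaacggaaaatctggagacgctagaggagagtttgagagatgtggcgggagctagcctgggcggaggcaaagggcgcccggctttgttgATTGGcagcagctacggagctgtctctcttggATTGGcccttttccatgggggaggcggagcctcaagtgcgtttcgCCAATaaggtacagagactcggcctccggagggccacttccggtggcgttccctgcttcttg
Dolk: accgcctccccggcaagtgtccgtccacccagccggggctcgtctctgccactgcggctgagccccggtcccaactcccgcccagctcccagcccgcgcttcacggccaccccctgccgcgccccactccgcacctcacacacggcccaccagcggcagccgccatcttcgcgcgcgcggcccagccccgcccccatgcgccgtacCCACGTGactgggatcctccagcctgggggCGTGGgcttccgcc
Man1b1: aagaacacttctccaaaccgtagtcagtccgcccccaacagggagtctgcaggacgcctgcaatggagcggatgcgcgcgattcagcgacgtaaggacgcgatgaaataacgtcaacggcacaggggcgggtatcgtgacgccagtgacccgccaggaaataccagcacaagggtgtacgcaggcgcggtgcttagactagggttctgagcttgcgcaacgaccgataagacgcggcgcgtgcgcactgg
Mgat4a: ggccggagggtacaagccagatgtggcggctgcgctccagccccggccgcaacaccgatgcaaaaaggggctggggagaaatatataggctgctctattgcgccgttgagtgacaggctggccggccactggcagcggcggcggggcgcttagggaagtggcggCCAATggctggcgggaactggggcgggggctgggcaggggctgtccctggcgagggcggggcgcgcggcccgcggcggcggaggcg
CCAAT is the core bound by NF-Y, CCACG is part of the ER stress element and ACGTG is the core of an element used by XBP1 and ATF6. The Ddost stretch holds 3 CCAAT matches, that of Mgat4a 1, and that of Man1b1 no match to any of the motifs. That of Dolk holds 2 CCACG matches, 1 of them overlapping a CACGTG that matches ACGTG on both strands. Over whole windows of 300 bases (250 before and 50 after the start), CCAAT was found in 46.9% of the 49 windows of the 39 members that have one and in 37.4% of all 32851 windows. For CCACG the shares were 46.9% and 32.8%, with 45.1% among windows of all tested genes, and for ACGTG 18.4% and 19.6%, with 24.3% among windows of all tested genes. The full ER stress element, in which 9 bases separate its NF-Y core from its second part, was found in 1 member window, that of Alg12, and in 0.119% of all windows. A match of letters is a description and not evidence of binding.

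The Golgi mannosidases gave 0 calls among 4 members. Man1a, a further Golgi mannosidase, falls outside the name rule. It averaged 47.2 FPKM in control and 57.5 FPKM in knockout libraries, and stood at 0.26 (SE 0.12, adjusted p = 0.158). Man2a1, mannosidase II and the most abundant of the 4 members at 14.9 FPKM, stood at -0.24 (SE 0.10, adjusted p = 0.121). Its control libraries, at 104, 121 and 115 CPM, were all above its knockout libraries, at 98.2, 94.7 and 94.6 CPM. Its paralog Man2a2 stood at 0.17 (adjusted p = 0.583). Man1a2, a Golgi mannosidase I, stood at 0.27 (SE 0.12, adjusted p = 0.145), with knockout libraries at 98.2 to 111 CPM above control libraries at 75.6 to 96.6 CPM, and Man1c1, at 2.07 to 5.03 CPM, at 0.05 with a 95% interval of -0.87 to 0.96.

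The branching enzymes held the only member that fell, Mgat4a. The GlcNAc-transferase IV it encodes starts a branch on the core mannose, and in pancreatic beta cells it is known for keeping a glucose transporter at the surface. Its level was 649, 633 and 555 CPM in control libraries 1 to 3 and 476, 386 and 316 CPM in knockout libraries 1 to 3. The lowest control library was above the highest knockout library, and the difference was -0.64 (SE 0.16, adjusted p = 0.0313), or 0.64-fold. The call was lost without control 2, control 3, knockout 2 or knockout 3, at adjusted p = 0.0801, 0.0634, 0.109 and 0.104, with differences of -0.59, -0.68, -0.63 and -0.51. The enterocyte markers, whose summed levels are given above, had 3 of 12 genes lower and 0 higher, and all 6 tested tuft cell markers were lower. Their part in the Mgat4a value was not tested.

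Of the 9 tested branching and core fucose genes, 7 had estimates below 0 under the main scaling and under each other scaling tried, with a median of -0.23, or -0.10 under library size alone. Mgat3, which adds the bisecting GlcNAc, stood at -0.37 (SE 0.14, adjusted p = 0.113), with 1 knockout library, at 169 CPM, above the lowest control library, at 163 CPM. Mgat5, which makes the branch recognised by galectins, stood at -0.32 (adjusted p = 0.171). Mgat4c, the most abundant, was read at 555, 480 and 389 CPM in control and 448, 330 and 402 CPM in knockout libraries, which overlap, at -0.27 (SE 0.17, adjusted p = 0.298). Mgat4b stood at -0.23 (SE 0.10, adjusted p = 0.134) and Mgat1, which opens the way to all complex glycans, at -0.18 (SE 0.10, adjusted p = 0.229), both with every knockout library below every control library. Fut8, the core fucosyltransferase, stood at -0.22 with control values from 44.1 to 76.8 CPM (adjusted p = 0.504). Mgat2 stood at 0.06 and Slc35a3, a Golgi UDP-GlcNAc transporter with 59.9 FPKM, at 0.07, with a 95% interval of -0.19 to 0.33.

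Ratios of related enzymes within a library do not depend on scaling between libraries. In log2, the Mgat4a count over the Mgat4b count was 2.58, 2.58 and 2.40 in control and 2.35, 2.00 and 1.94 in knockout libraries. That ratio was lower in all 3 knockout libraries, by 0.42 (p = 0.1 in a two-sided exact permutation test, the smallest 3 against 3 can give, adjusted p = 0.4 over 4 pairs). The knockout minus control difference was -0.40 for Man2a1 over Man2a2 (exact p = 0.2, adjusted 0.4), -0.15 for Stt3a over Stt3b (exact p = 0.4, adjusted 0.533) and 0.23 for Man1a2 over Man1c1 (exact p = 0.7). With 3 libraries a group, an exact test cannot reach the threshold for any pair. The last changed sign without control 2 (-0.21) or without knockout 1 (-0.10).

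Outside the ER and Golgi steps, the lysosomal mannosidases Man2b1 and Man2b2 stood at 0.28 (adjusted p = 0.180) and -0.23 (adjusted p = 0.172), and the cytosolic Man2c1 at -0.08. Eogt is a different kind of member: it attaches O-linked GlcNAc to extracellular domains inside the ER and makes no N-glycan. It was read at 14.6, 10.4 and 10.7 CPM in control libraries 1 to 3 and 8.22, 6.0 and 7.78 CPM in knockout libraries 1 to 3, with no overlap. The difference of -0.70 (SE 0.21) lay at an adjusted p of 0.0500194, just outside the threshold, and it passed with DESeq2 (adjusted p = 0.0336) and with a filter of 1 CPM in 3 libraries (adjusted p = 0.0468). In each of the 6 analyses that left out 1 library it did not pass (adjusted p from 0.0737 to 0.153). It overlaps Gm44065 on the opposite strand over 8.49% of its exonic bases.

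Genes that feed or follow the pathway were taken from 4 lists of 56 tested genes, of which 8 were higher and 4 lower (21.4% in either direction, beside 18.7% of all genes). Among 18 genes of dolichol and sugar nucleotide supply, 3 rose and 2 fell. Pgm3 belongs to the route to UDP-GlcNAc, and Uap1l1 was listed with it. Uap1, also of this route and list, did not pass the test and was called lower without control 1. Uap1l1 went from 34.7, 47.2 and 40.0 CPM in control to 84.2, 119 and 87.8 CPM in knockout libraries (1.26, SE 0.17, adjusted p = 0.00376), and Pgm3, a mutase, rose by 0.91 (adjusted p = 0.00546). Both passed whichever library was left out. GDP-mannose is made by the enzyme Gmppb, which rose by 0.62 (adjusted p = 0.0146, but 0.0507 without knockout 2), while its regulatory partner Gmppa fell from 32.1, 35.4 and 35.1 CPM to 15.9, 18.8 and 17.6 CPM (-0.97, SE 0.12, adjusted p = 0.00288). Dolpp1, a dolichyl pyrophosphate phosphatase, fell by 0.54 (adjusted p = 0.0153), a call lost without control 2, control 3, knockout 2 or knockout 3 (adjusted p from 0.0516 to 0.0686). Gfpt1, the most abundant of the list and the entry enzyme of the hexosamine route, stood at 0.32 (adjusted p = 0.107) and passed under library size alone.

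The 3 further oligosaccharyltransferase subunits gave 0 calls: Tmem258 stood at -0.68 (SE 0.21, adjusted p = 0.0560), Ost4 at 0.26 and Krtcap2 at 0.28. Tmem258 passed with DESeq2 (adjusted p = 0.0364) and Ost4 under library size alone (adjusted p = 0.0375). In ER glycoprotein quality control, 2 of 18 genes rose and 1 fell. Syvn1, the ubiquitin ligase of ER-associated degradation, rose by 0.71 (adjusted p = 0.0367) and its partner Sel1l fell from 164, 153 and 156 CPM to 102, 108 and 75.6 CPM (-0.73, SE 0.14, adjusted p = 0.0130). Lman2, a cargo lectin, rose by 0.45 (adjusted p = 0.0288), and Calr, the chaperone calreticulin and the most abundant, stood at 0.27 (adjusted p = 0.216). Sel1l passed whichever library was left out; Lman2 was lost without control 3 or any 1 knockout library (adjusted p up to 0.108), and Syvn1 without any 1 library but knockout 1 (adjusted p up to 0.109). Of 17 other Golgi enzymes and transporters, 3 rose and 1 fell. The sialyltransferase St3gal6 fell from 15.1, 12.7 and 17.5 CPM to 4.56, 4.78 and 5.24 CPM (-1.63, SE 0.18, adjusted p = 0.00234), in each analysis that left out 1 library too. The UDP-galactose transporter Slc35a2 rose by 0.66 (adjusted p = 0.0149), Nagpa, which uncovers mannose 6-phosphate, by 0.76 (adjusted p = 0.0199) and the galactosyltransferase B4galt3 by 0.54 (adjusted p = 0.0288), and all 3 of these lost their calls without control 3 (adjusted p = 0.0531, 0.0657 and 0.0641). Slc35a2 also lost its call without knockout 3, Nagpa without knockout 2 and B4galt3 without any 1 knockout library (adjusted p up to 0.0872). St3gal4, the most abundant of this list, stood at -0.62 (adjusted p = 0.0611), with DESeq2 at adjusted p = 0.0117.

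**Figure D5:**
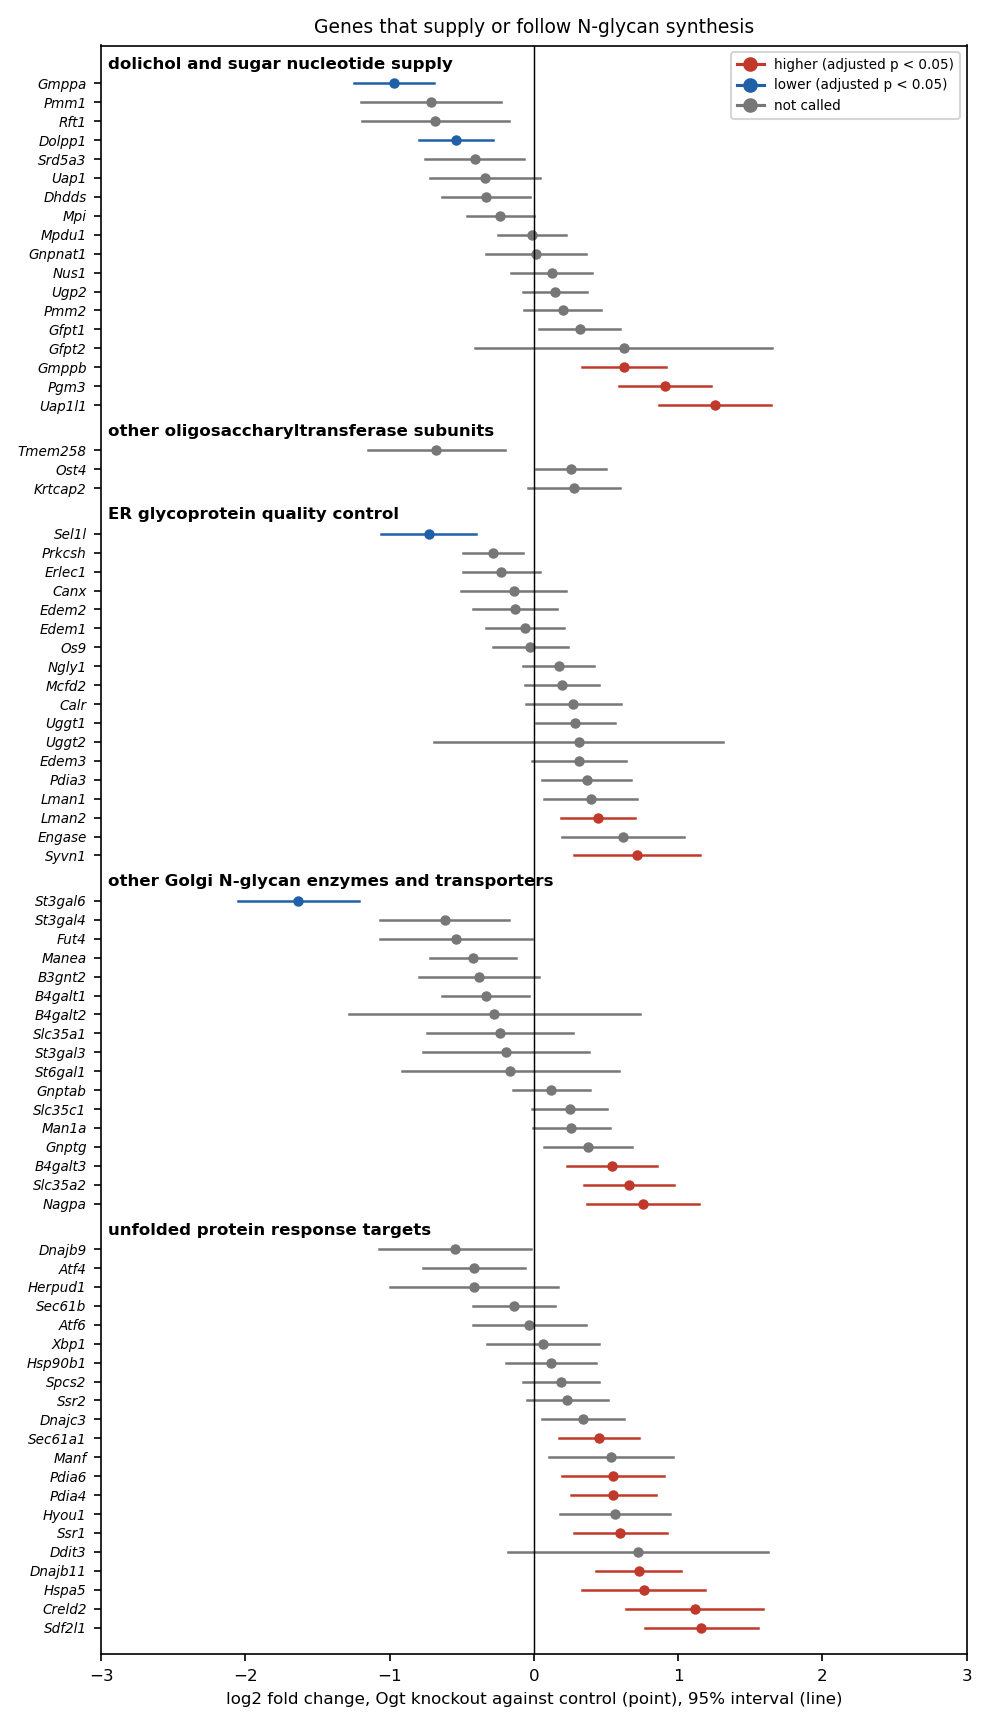
Log2 fold change (horizontal axis, points) with 95% intervals (lines) for genes of sugar supply, further oligosaccharyltransferase subunits, ER quality control, other Golgi enzymes and targets of the unfolded protein response; n = 3 libraries a group. Red and blue points passed the test, with Uap1l1 at 1.26 and St3gal6 at -1.63 as the widest of the first 4 groups.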

How the data were processed

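Bulk RNA was sequenced from ileal epithelial cells of 3 control and 3 Ogt knockout libraries. Per the labels' protocols, Trizol was used for extraction and the NEBNext Ultra RNA kit for libraries; that kit is not stranded. The authors deposited estimated counts (expected counts) and FPKM per gene and library, per the file headers; the submitters' processing notes name GRCm39 and mm39, with aligner and counter not given in the sources used here. Between 7.68% and 8.09% of deposited counts were not whole (tolerance 0.001).

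Symbols were matched by Ensembl ID to GENCODE M21 (22219 of 22274 rows), used for names and exon overlap only. Counts were rounded, filtered with filterByExpr (minimum count 10, total 15), scaled with TMM and tested with the quasi-likelihood test of edgeR 4.0.16 (R 4.3.3), with Benjamini-Hochberg adjustment and a threshold of 0.05. The SE was taken from the F statistic. The test was checked on simulated data. No 2 libraries agreed within sampling noise (mean chi-square per gene at least 20.6). Counting limits precision at low levels: 3 counts are 0.159 to 0.207 CPM. Groups follow the sample titles. Alternatives were other scalings, DESeq2 1.42.0, limma 3.58.1 (voom, log2 of FPKM plus 0.1 or 1, minimum 1 FPKM in 3 libraries), other filters, a replicate block, each library left out, and 2 summed rows added after seeing the data.

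The members and lists were chosen with earlier results of these data known. Named genes are all called members, the most abundant gene of each role and list, the highest and lowest uncalled estimates, the paralog pairs, Ogt and the 3 smallest adjusted p of each list; the other genes named were added to account for the members or after their values were seen. Promoter windows come from RefSeq (GRCm38.p6); the last 30 bases of 43 of the 49 member windows occur in a transcript of the gene. Figures were drawn with matplotlib.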

Additional observations from a re-analysis of the deposited data

How the results depend on the processing

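Dpm1 and Man1b1 passed in all 16 alternatives run on their own rows; those of Dolk, Ddost and Mgat4a were lost only where 1 library was left out. Over the 42 genes named by rule, 602 values under these alternatives kept direction and side of the threshold, 22 lost the call, 16 gained it and 30 changed sign. Higher and lower members numbered 2 to 9 and 0 to 2 when 1 library was left out, and the members' median log2 fold change was 0.0174 to 0.0805. Higher and lower genes in all then numbered 549 to 1932 and 460 to 1372. Of 44 tested members, 7 were higher with limma on log2(FPKM + 0.1) and 7 with log2(FPKM + 1), which added Alg13, Dad1 and Dpm2. Of all 11832 genes tested on these scales, 1906 and 1946 were higher. There were 2 lower members, Eogt being the second, with DESeq2 and 2 with a filter of 1 CPM in 3 libraries. Lower genes in all numbered 1503 and 1374 in these 2 analyses. The median was 0.0660 with DESeq2 size factors, 0.183 with library size alone, 0.0331 without a filter, and 0.135 and 0.119 on the FPKM scales. Library size alone moved the median of all genes from -0.05 to 0.09, and on the FPKM scales that median was 0.116 and 0.0997. The replicate number as a block gave 5 higher and 3 lower members, adding Alg8, Dpagt1 and Eogt, and 1728 higher and 1674 lower genes in all. With each gene's group mean taken away, the deviations of control and knockout libraries of the same number correlated at 0.274, 0.253 and 0.0842. By these deviations, each library correlated best with its own number in the other group. Whether the numbers mark pairs is not known, and the main analysis did not treat them as pairs. Estimates near 0 changed sign. Ganab was 0.00917 with DESeq2 size factors, 0.124 with library size alone, 0.0108 with DESeq2, and 0.124 and 0.122 on the FPKM scales (-0.0607 to 0.0428 with 1 library left out). Ostc was 0.0151 with DESeq2 size factors, 0.130 with library size alone, 0.00214 with upper quartile factors, 0.0166 with DESeq2, 0.0118 with voom, 0.000566 without a filter, 0.146 and 0.145 on the FPKM scales and 0.0121 with the block (-0.0657 to 0.199). Stt3b was 0.0853 with library size alone and 0.0847 and 0.0835 on the FPKM scales (-0.0915 to 0.0267). Man1c1 ran from -0.223 to 0.503 with 1 library left out. The log2 ratio difference of Man1a2 and Man1c1 ran from -0.208 to 0.528, those of Stt3a and Stt3b, Man2a1 and Man2a2, and Mgat4a and Mgat4b stayed below 0. The cause of these changes was not tested. Among members with few counts, Alg3, Dpm3 and Man1c1 had SEs of 0.23, 0.28 and 0.40. Their coefficients of variation over control libraries were 20.8%, 35.7% and 44.2%. Differences within those SEs were not detectable with these libraries.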

Other observations

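Targets of the unfolded protein response, the programme that raises ER chaperones and parts of the N-glycan machinery, had 8 of 21 tested genes higher and 0 lower, with a median log2 fold change of 0.45 (all tested genes: 9.33% higher, median -0.05). Hspa5, the ER chaperone BiP, was read at 750, 617 and 591 CPM in control libraries 1 to 3 and 1061, 1371 and 884 CPM in knockout libraries 1 to 3 (0.76, SE 0.19, edgeR adjusted p = 0.0269); its call was lost without control 2, control 3, knockout 1 or knockout 2 (adjusted p from 0.0615 to 0.0913). Sdf2l1 rose by 1.16 (adjusted p = 0.00470), Creld2 by 1.11 (adjusted p = 0.0110) and Dnajb11 by 0.73 (adjusted p = 0.00874), and these 3 passed whichever library was left out. Pdia4, Pdia6, Ssr1 and Sec61a1 were the other higher genes, and Hsp90b1, the most abundant, stood at 0.12 (adjusted p = 0.580). The count was 3 without control 3, without knockout 1 or without knockout 2, 4 without control 2, 7 without knockout 3, and 10 higher and 1 lower without control 1. Dnajb9, Herpud1, Atf4 and Xbp1, also of this list, did not pass the test, at -0.55, -0.41, -0.42 and 0.06. B and plasma cell markers, of another cell type rich in ER, summed to 1244 to 5741 CPM in control and 2621 to 4728 CPM in knockout libraries; 0 of the 6 were called. Enteroendocrine markers summed to 62.6 to 89.9 CPM in control and 108 to 126 CPM in knockout libraries, with 1 of 7 higher and 0 lower, and fibroblast markers to 256 to 360 and 365 to 426 CPM, with 2 of 5 higher and 0 lower. The part of these cell types, and of Paneth and goblet cells, in the values above was not tested. Hspa5, Dnajb9, Herpud1, Atf4 and Xbp1 were picked after their values were seen.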
